A study of Mus musculus with 39 samples.

Results

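The comparison described here set a high-fat diet against a low-fat diet in mouse subcutaneous adipose tissue during the first days of feeding. Its members were 8 of the 39 arrays of the series, namely the LFC and HFC arrays of Day 6, Day 10, Day 14 and Week 0, with 1 array for each diet at each of the 4 time points. All mice were C57BL/6J and were weaned at 3 to 4 weeks of age, after which the LFC group ate a diet with 10% of its calories from fat and the HFC group a diet with 60% of its calories from fat and more sucrose. No group used here received the botanical formulation KAL-1 that other mice of the series were given. The study's methods count the weeks from Day 14, so Day 14 and Week 0 stand for the same length of feeding measured on separate arrays. The labels do not say whether an array carried RNA of 1 mouse or of a pool, and the study's description speaks of biological replicates where 1 array per diet and time point was analysed here, so n counts arrays. The p values of the early comparison measure only the spread of the HFC minus LFC differences over the 4 time points. Any change of the diet difference with time is part of that spread. The question was which transcripts had already separated the diets before the first of the later collections at Week 3.

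White adipocytes store fatty acids as triglyceride and can also build them from sugar. In that pathway citrate leaves the mitochondrion and is split by ATP citrate lyase, the product is carboxylated by acetyl-CoA carboxylase, fatty acid synthase builds palmitate, and elongases and desaturases extend it and add double bonds, while malic enzyme supplies NADPH. The transcription factors SREBP-1c and ChREBP, which respond to insulin and to sugars, are known activators of these genes, and dietary fat, above all polyunsaturated fat, is known to lower them. Fat tissue also holds macrophages, vessels, fibroblasts and, in the subcutaneous depot of young mice, beige adipocytes that express the uncoupling protein Ucp1.

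Each transcript level below is the log2 signal of a 60-base probe minus the 75th percentile of its array, so that 0 is a bright but not extreme spot and 1 unit is a factor of 2. Probes of 5 genes on which the results turn are printed 5′ to 3′ as the deposited table gives them, in lower case throughout. The first 3 belong to sugar and fatty acid metabolism and the last 2 to inflammation. The table places them on chromosomes 3 (Elovl6), 4 (Slc2a5), 9 (Me1), 7 (Saa3) and 19 (Mpeg1), without start and end positions.
Elovl6: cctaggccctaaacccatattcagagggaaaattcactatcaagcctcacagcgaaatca
Slc2a5: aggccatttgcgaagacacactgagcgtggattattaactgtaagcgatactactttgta
Me1: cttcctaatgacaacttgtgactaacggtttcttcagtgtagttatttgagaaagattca
Saa3: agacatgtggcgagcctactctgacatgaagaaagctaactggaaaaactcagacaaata
Mpeg1: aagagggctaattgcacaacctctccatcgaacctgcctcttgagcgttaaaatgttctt

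Some arrays stood apart from the others. Markers of other tissues moved on the HFC array of Day 14, where albumin (Alb) was at 5.62 against -3.14 to 2.07 on the other 7 arrays and mesothelin (Msln), a marker of the mesothelium, was at 3.58 against -6.23 to -2.96. Over the 8 tested liver markers the mean level was 3.61 on that array, -2.80 to -0.19 on the other HFC arrays and -3.04 to -0.92 on the LFC arrays. The Day 10 pair differed in immediate early genes, whose mean was 3.69 on the LFC array and -0.34 on the HFC array. Both Day 6 arrays were as low as the latter (-0.47 and -0.34), and the arrays of Day 14 and Week 0 ran from 3.39 to 4.13. Across the 20951 genes with a value on all 8 arrays, the HFC array of Day 10 correlated with the 2 Day 6 arrays at 0.961 and 0.956 and with its own LFC partner at 0.919, while the Week 0 pair correlated at 0.988. Skeletal muscle markers were at 3.67 and 4.22 on the LFC and HFC arrays of Day 6 and below 0 on all arrays of Day 14 and Week 0. The defining adipocyte gene Adipoq and the beige and brown fat gene Ucp1 were well above background on all 8 arrays, with Ucp1 going from 6.06 at Day 6 to 0.56 at Week 0 in LFC. Between 66.3% and 84.1% of spots were well above background, and the 75th percentile of intensity ran from 438 to 1243. The parts that these differences between arrays play in the results below were not tested, and beside each early list median over the 4 time points stands its range when 1 of the 4 time points was left out, or the values without single time points.

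**Figure D1:**
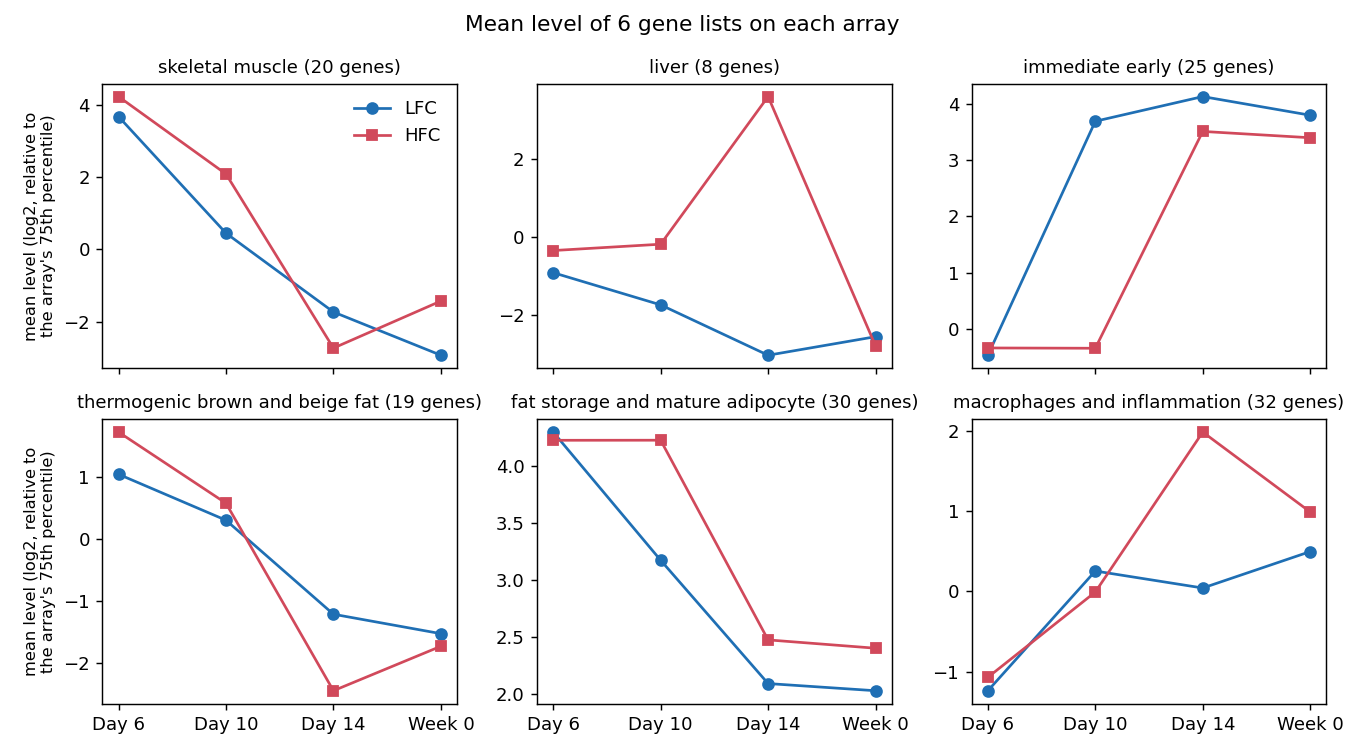
Mean level of 6 gene lists (y axis, log2 relative to the 75th percentile of the array) on the LFC (circles) and HFC (squares) array of each time point (x axis), 1 array per point. Skeletal muscle and thermogenic genes were highest at Day 6 in both diets, liver genes stood out on the HFC array of Day 14, and the Day 10 pair was split in immediate early genes.

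No single gene passed the correction for the number of genes tested. In limma with the time point as a block, 0 of 21123 genes (0%) had an adjusted p under 0.05, and 881 had an unadjusted p under 0.05. Of these, 522 (2.47% of all genes) were higher in HFC and 359 (1.7%) lower, a share of 59.3% higher that became 46.1% when arrays were scaled to their median, 47.7% after quantile normalization and 38.3% after normexp background correction, which moved the median of all genes to -0.14. The 881 genes are a smaller share of all genes tested than a threshold of 0.05 would let through with no diet effect. The unadjusted count was 1729 without Day 6 and 581 without Day 14. Genes on the same side at all 4 time points numbered 1237 higher (5.86%) and 1684 lower in HFC (7.97%). A 2-fold difference at each of the 4 time points was found for 23 genes higher (0.109%) and 6 lower (0.0284%). These became 165 and 130 at the remaining 3 time points without Day 6, 58 and 9 without Day 10, 47 and 24 without Day 14, and 112 and 28 without Week 0. After normexp background correction 0 genes were higher and 2 lower by that measure. Within the 8 arrays, 161 genes (0.762%) had no overlap between the diets.

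A gene of fatty acid elongation and a fructose transporter were among the genes lower by 2-fold at each time point. Elovl6, the elongase that extends palmitate to stearate, had the smallest p of all genes. At Day 6, Day 10, Day 14 and Week 0 its level was 6.16, 3.98, 1.95 and 1.80 on the LFC arrays and 3.98, 2.24, 0.13 and 0.17 on the HFC arrays. It was lower in HFC at every time point while both diets went down with time, so the groups overlapped only across time points. The mean difference was -1.84 (SE 0.23) on the log2 scale, 3.58-fold lower, and each time point gave a value between -2.18 and -1.63 (limma unadjusted p = 0.000246, adjusted p = 0.833). Over the alternatives of processing it ran from -1.91 to -1.65, with -1.65 after normexp correction. Slc2a5, which encodes the fructose transporter GLUT5, was at 3.76, 1.06, -0.36 and -1.70 on the LFC arrays and -0.01, -1.85, -2.17 and -4.16 on the HFC arrays in the same order. It was lower in HFC at every time point, again with overlap across time points. Among the 5 genes lower by 2-fold throughout that are named in the text it had the largest mean difference, -2.74 (SE 0.36) or 6.66-fold lower (limma unadjusted p = 0.000381, adjusted p = 0.833). Sucrose, which the HFC diet held more of, is a source of fructose.

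**Figure D2:**
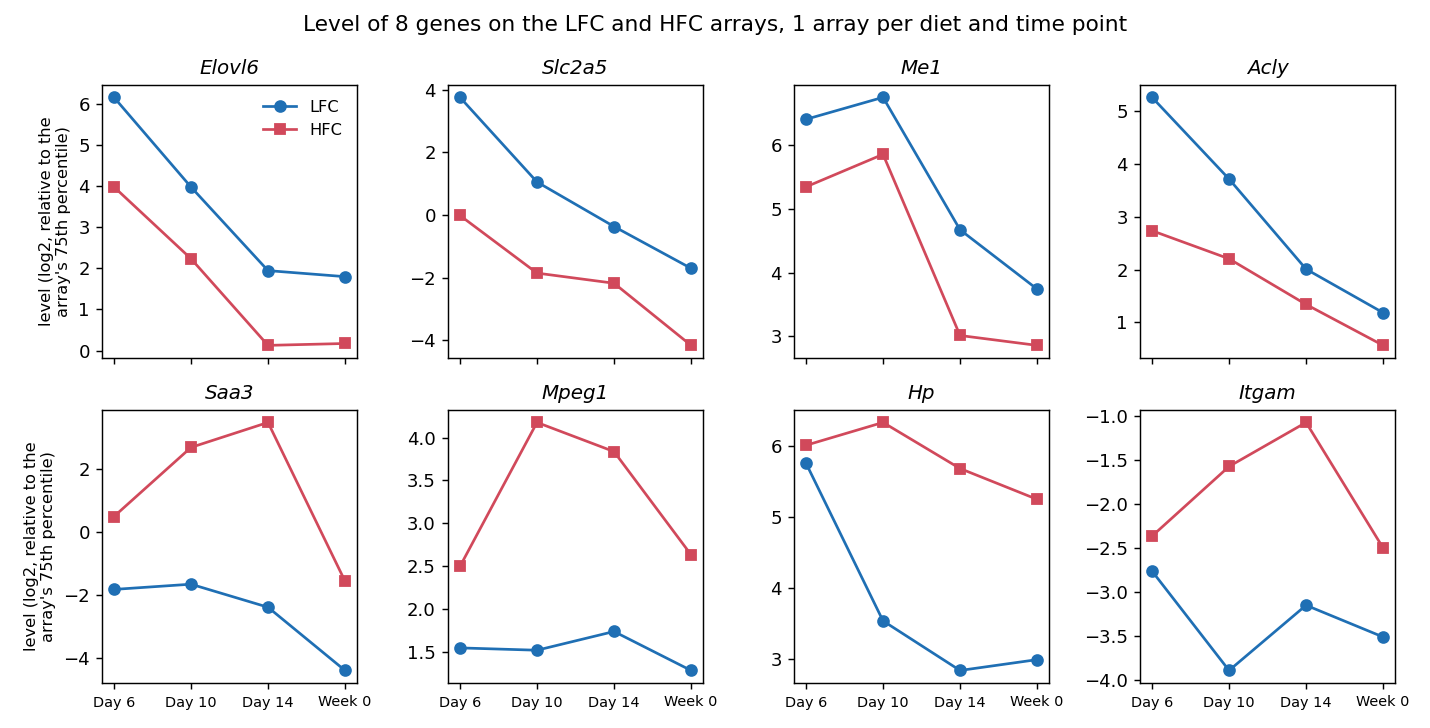
Level of 8 genes (y axis, log2 relative to the 75th percentile of the array, a scale for each panel) by time point (x axis), with LFC arrays as circles and HFC arrays as squares, 1 array per point. Elovl6, Slc2a5, Me1 and Acly lie lower in HFC at all 4 time points, and Saa3, Mpeg1, Hp and Itgam lie higher.

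The fatty acid synthesis list held 22 genes, all tested, of which 11 (50%) were lower at 4 of 4 time points against 7.97% of all genes, and 0 were higher at 4 of 4. Fasn, saturated on 7 of 8 arrays, is among those counted as lower. An unadjusted p under 0.05 was reached by 7 members, all lower, against 1.7% of all genes. The median difference of the list was -0.39 (-0.56 to -0.27 with 1 time point left out), against -0.04 over all genes. By time point the median was -1.65 at Day 6, -0.31 at Day 10, -0.36 at Day 14 and -0.28 at Week 0, so the separation was widest at the first of them. At the 3 remaining time points 13 members were lower without Day 14 (14.2% of all genes), 11 without Day 10 (11.7%) and 12 without Day 6 (20% of all genes). Without Day 6, 5 members were higher at the remaining 3 (15.2% of all genes), and without Day 10 or Day 14, 0 were. In whole tissue, fewer cells of a type and less RNA per cell cannot be told apart.

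Along the pathway, the citrate carrier Slc25a1 differed by -2.62, -0.38, -0.90 and -0.60 at the 4 time points, with a mean of -1.12 (SE 0.43). Acly, the lyase that makes cytosolic acetyl-CoA, went from 5.25, 3.71, 2.01 and 1.18 in LFC to 2.73, 2.20, 1.34 and 0.57 in HFC. Its differences of -2.52, -1.51, -0.67 and -0.62 became smaller from each time point to the next, with a mean of -1.33 (SE 0.39). Acaca, the carboxylase isoform of lipogenic tissue, had a mean difference of -1.02 (SE 0.35), and all 4 of its probes were lower in HFC at 4 of 4 time points. Acacb, the mitochondrial isoform, did not keep one side, with -0.02, -1.45, 1.75 and -0.54. Fasn was near the top of the scanner's range, saturated on 4 of 4 LFC arrays and 3 of 4 HFC arrays, so no fold is given. The 75th percentile was higher on the HFC array of every pair, and a spot saturated on both arrays of a pair therefore takes a lower level in HFC by the scaling alone. Me1, the malic enzyme, was at 6.41, 6.76, 4.68 and 3.74 on the LFC arrays and 5.35, 5.86, 3.02 and 2.86 on the HFC arrays, a mean difference of -1.12 (SE 0.25) that lay between -1.66 and -0.88. The desaturase Scd2 was at 5.74, 4.16, 3.60 and 3.69 in LFC and 2.78, 3.49, 1.97 and 2.92 in HFC, and its groups did not overlap at a mean difference of -1.51 (SE 0.44). Its relative Scd1 was saturated on 3 of the 8 arrays and differed by -0.26. Thrsp, a lipogenic nuclear protein, had a difference of -0.66 (SE 0.26). Another set of members was lower in HFC at Day 6 only. Pnpla3, a lipid droplet acyltransferase and lipase, gave -1.63, 2.61, 1.16 and 1.09, Mlxipl (ChREBP) gave -0.73, 1.02, 0.70 and 0.09 and G6pdx, the first enzyme of the pentose phosphate pathway, gave -1.72, 1.14, 0.50 and 0.57. Srebf1, which encodes SREBP-1, gave -0.49, 1.24, -0.13 and 0.41 and kept neither side. Limma's unadjusted p for Me1, Acly, Scd2, Acaca, Slc25a1 and Thrsp was 0.00452, 0.0151, 0.0152, 0.0303, 0.0404 and 0.0438, and none passed after adjustment (adjusted p = 0.833 for each).

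**Figure D3:**
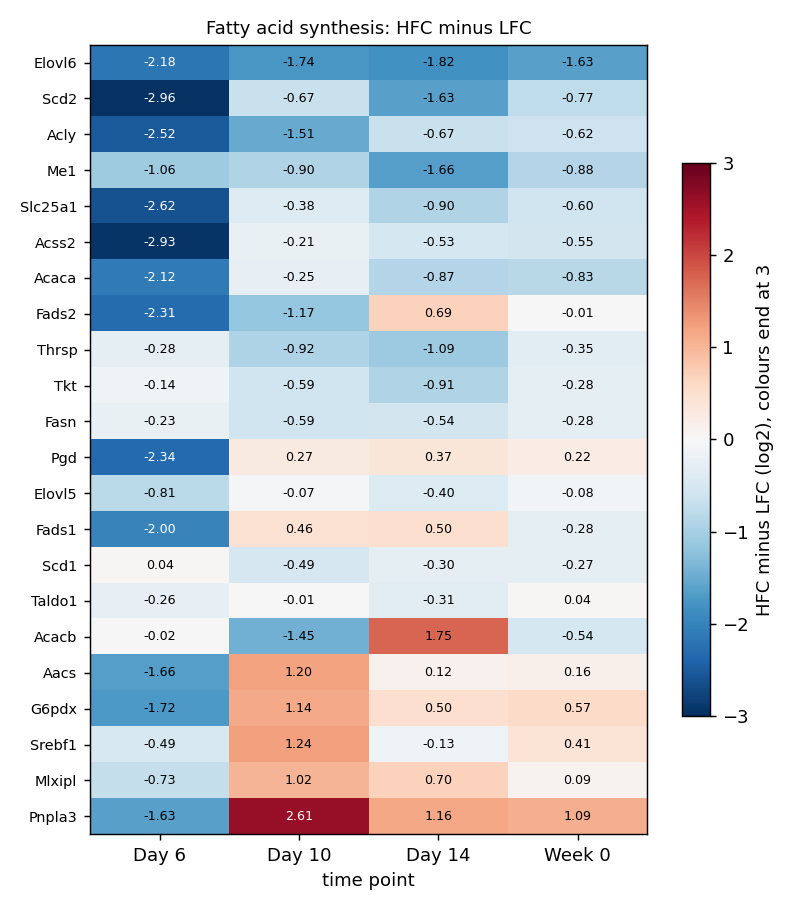
Difference HFC minus LFC (log2, colour and printed value) of the 22 members of the fatty acid synthesis list (rows, ordered by mean difference) at each time point (columns), 1 pair of arrays per column. Elovl6 is the one member below -1.5 in every column, and the strongest blue stands at Day 6.

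Promoters of the list were searched for short motifs on both strands, as a description. The window ran from 250 bases before to 50 bases after each RefSeq gene start (GRCm38.p6). The CCAAT box (CCAAT) was found in 13 of the 19 list genes with a promoter in the table, and in 41.1% of all 27025 genes. An E-box (CACGTG) was found in 3 of 19 and 8.09% of all genes, and the sterol element TCACNCCAC in 1 of 19 and 1.44%. The promoters of Slc25a1 and Thrsp are shown with their CCAAT matches in capitals (as ATTGG where the match is on the other strand), since each holds a pair of them, and with the E-box of Slc25a1 in capitals as well. They lie on the minus strand at chr16:17928170-17928469 and chr7:97417501-97417800.
Slc25a1: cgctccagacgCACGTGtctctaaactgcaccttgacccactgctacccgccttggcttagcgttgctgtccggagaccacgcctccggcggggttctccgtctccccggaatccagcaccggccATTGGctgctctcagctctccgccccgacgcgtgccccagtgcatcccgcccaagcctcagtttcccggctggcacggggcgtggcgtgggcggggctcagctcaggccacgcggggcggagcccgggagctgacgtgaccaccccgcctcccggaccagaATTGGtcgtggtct
Thrsp: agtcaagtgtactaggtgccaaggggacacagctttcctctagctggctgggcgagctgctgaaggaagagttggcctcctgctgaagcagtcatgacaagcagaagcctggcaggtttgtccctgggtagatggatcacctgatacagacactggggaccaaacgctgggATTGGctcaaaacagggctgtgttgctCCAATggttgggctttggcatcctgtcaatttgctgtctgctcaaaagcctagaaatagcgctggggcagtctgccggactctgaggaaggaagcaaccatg

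In cholesterol synthesis and uptake the time points disagreed. Of 25 members, 6 were lower in HFC at 4 of 4 time points (7.97% of all genes) and 1 was higher (5.86%), the median difference was -0.26, and its values by time point were -1.15, -0.30, 0.51 and -0.24. The sign of the median thus turned at Day 14, and it was 0.07 without Day 6, -0.40 without Day 10, -0.60 without Day 14 and -0.30 without Week 0. Idi1, the isomerase of the isoprenoid branch, was at 2.68, 2.05, 1.28 and 1.31 in LFC and 0.80, 0.96, 1.08 and 0.63 in HFC, and its groups did not overlap (mean difference -0.96 (SE 0.33)). Sc4mol, the sterol oxidase now named Msmo1, and Stard4, a sterol carrier, had differences of -0.77 (SE 0.27) and -0.72 (SE 0.26), lower at 4 of 4 time points. Acat2, Hmgcs1 and Mvk had mean differences of -0.19, -0.11 and 0.19.

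Some genes of fatty acid oxidation had higher values in HFC throughout. The list's median had the same sign as that of the skeletal muscle markers at each time point, with 0.44, 0.61, -0.16 and 0.31 against 0.89, 1.80, -1.19 and 1.62, and the part of muscle RNA in it was not tested. Of 28 tested members of the fatty acid oxidation and PPAR target list, 6 (21.4%) were higher in HFC at 4 of 4 time points against 5.86% of all genes, and 0 were lower. The median difference was 0.31 (0.18 to 0.40 with 1 time point left out, the lowest without Day 6), with -0.16 at Day 14. Without Day 14, 15 of 28 were higher at the 3 remaining time points, against 10.8% of all genes. Ehhadh, the peroxisomal bifunctional enzyme and a classic PPAR-alpha target, was at 1.83, -0.36, -2.18 and -2.04 in LFC and 2.78, 1.72, -1.15 and -1.47 in HFC, a mean difference of 1.16 (SE 0.32) (limma unadjusted p = 0.0116, adjusted p = 0.833). Slc25a20, the carrier that brings acylcarnitine into mitochondria, differed by 0.88, 1.48, 0.61 and 0.53. Ppara, Ppard, Cpt1a and Cpt1b had mean differences of 0.50, -0.06, 0.08 and 0.17. Vnn1, a pantetheinase and a known PPAR-alpha target that was outside the list, was among the genes higher by 2-fold throughout. It was at -2.08, -3.63, -5.29 and -3.77 on the LFC arrays and 0.19, -1.18, -1.71 and -2.73 on the HFC arrays, a mean difference of 2.34 (SE 0.43) or 5.06-fold, and 1.03 on the log2 scale after normexp correction. The Vnn1 difference was largest at Day 14 (3.58), and without Day 14 the mean was 1.92. The part of the liver transcripts on the HFC array of Day 14 in it was not tested. The antioxidant enzymes Cat (catalase) and Gpx3 were also higher at 4 of 4 time points, with differences of 1.21 (SE 0.32) and 1.17 (SE 0.31). The Nrf2 antioxidant list that holds them had a median of -0.13 that was 0.17 without Day 6, and Nqo1, Hmox1, Gclc and Gclm had differences of -0.25, 0.30, -0.45 and -0.30. Of its 19 tested members, 3 were higher at 4 of 4 time points (5.86% of all genes), Gpx1 with 0.33 being the third, and 1, Me1 with -1.12, was lower (7.97%).

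Of the 30 tested genes of fat storage and the mature adipocyte, 2 were higher at 4 of 4 time points (6.67% against 5.86% of all genes). The 3 counted as lower at 4 of 4, Fabp4, Cfd and Mgll, were saturated on 7 or 8 of the 8 arrays and carry no direction. The list had a median of 0.49 and 1.13 at Day 10. Without Day 10 the median was 0.17 and without Day 6 it was 0.67. The lipid droplet proteins Plin1 and Plin4 had differences of 1.14 (SE 0.41) and 0.90 (SE 0.33), near 0 at Day 6 for Plin1 (-0.06) and over 1 at the other 3 time points. Pparg, Cebpa and Cebpb had mean differences of -0.09, 1.02 and -0.09, and Fabp4 was saturated on all 8 arrays. Leptin (Lep), the hormone released in proportion to fat mass, was at 1.31, -1.48, -1.87 and -1.75 in LFC and 0.43, 3.28, 0.71 and 0.16 in HFC. It was lower in HFC at Day 6 and higher at the other 3 time points, with differences of -0.88, 4.77, 2.58 and 1.91 and a mean of 2.09 (SE 0.87), or 1.20 without Day 10 (limma unadjusted p = 0.0557). Adipoq, Retn and Retnla, which encode adiponectin and resistins, shared this order, with a negative value at Day 6 and positive values at the other 3, although Adipoq was saturated on 3 of the 8 arrays (means 0.67, 0.91 and 0.91, and 0.50, 0.47 and 0.57 without Day 10). Sfrp5, a secreted inhibitor of Wnt signals, was lower at 4 of 4 time points with no overlap of the groups (-1.07 (SE 0.34)), and Ndrg1 differed by -1.24 (SE 0.48). The adipokine list as a whole had 0 of 17 members higher (5.86% of all genes) and 3 lower (7.97% of all genes) at 4 of 4 time points, the latter with Cav1, which was saturated on 7 of 8 arrays. Its median was 0.46, with 0.37 without Day 10 and 0.80 without Day 6.

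Of 19 thermogenic genes, 1 was higher (5.86% of all genes) and 2 were lower (7.97% of all genes) at 4 of 4 time points, with a median of -0.17 that became 0.35 without Day 14 and -0.54 without Day 6. Elovl3, the elongase of brown fat, was at -0.88, -1.97, -5.08 and -5.81 in LFC and -1.30, -3.77, -8.00 and -8.57 in HFC, lower at 4 of 4 time points at a mean difference of -1.97 (SE 0.47), although on 2 of the 4 HFC arrays it was not well above background. Ucp1, Cidea and Ppargc1a had mean differences of -1.46, -1.43 and 0.44, and that of Ucp1 was -0.66 without Day 14 and positive at Day 6. For Cidea, saturated on 2 of the 8 arrays, the 4 time points gave -0.21, -0.02, -5.07 and -0.43, and without Day 14 the mean was -0.22. The acyl-CoA synthetase Slc27a2 was higher at 4 of 4 time points (2.47 (SE 0.70)). In the respiratory chain, Ndufa1, Ndufa2, Ndufa4 and Ndufa5 had differences of -0.01, 0.25, 0.20 and -0.24, and the median of the 41 subunits was 0.06 (-0.04 to 0.10 with 1 time point left out).

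Several acute-phase and macrophage genes were on the higher side in HFC, while some cytokine genes were not. Saa3, an acute-phase serum amyloid made in fat and by macrophages, was at -1.82, -1.66, -2.39 and -4.40 on the LFC arrays and 0.49, 2.69, 3.48 and -1.56 on the HFC arrays. Every HFC value lay above every LFC value, and the mean difference was 3.84 (SE 0.62), 14.3-fold (limma unadjusted p = 0.001, adjusted p = 0.833). Saa3 differed most at Day 14, where the liver markers averaged 3.61 on the HFC array, and their part in the value was not tested. Without Day 14 the mean was 3.17, and after normexp correction it was 2.91. Hp (haptoglobin), an acute-phase protein of liver and fat cells, was at 5.75, 3.53, 2.84 and 2.99 in LFC and 6.01, 6.33, 5.68 and 5.25 in HFC, with a mean difference of 2.04 (SE 0.49) although 2 of its HFC values were saturated. Hp is itself on the liver marker list, and its difference was 2.84 at Day 14. The part of liver RNA in that value was not tested.

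**Figure D4:**
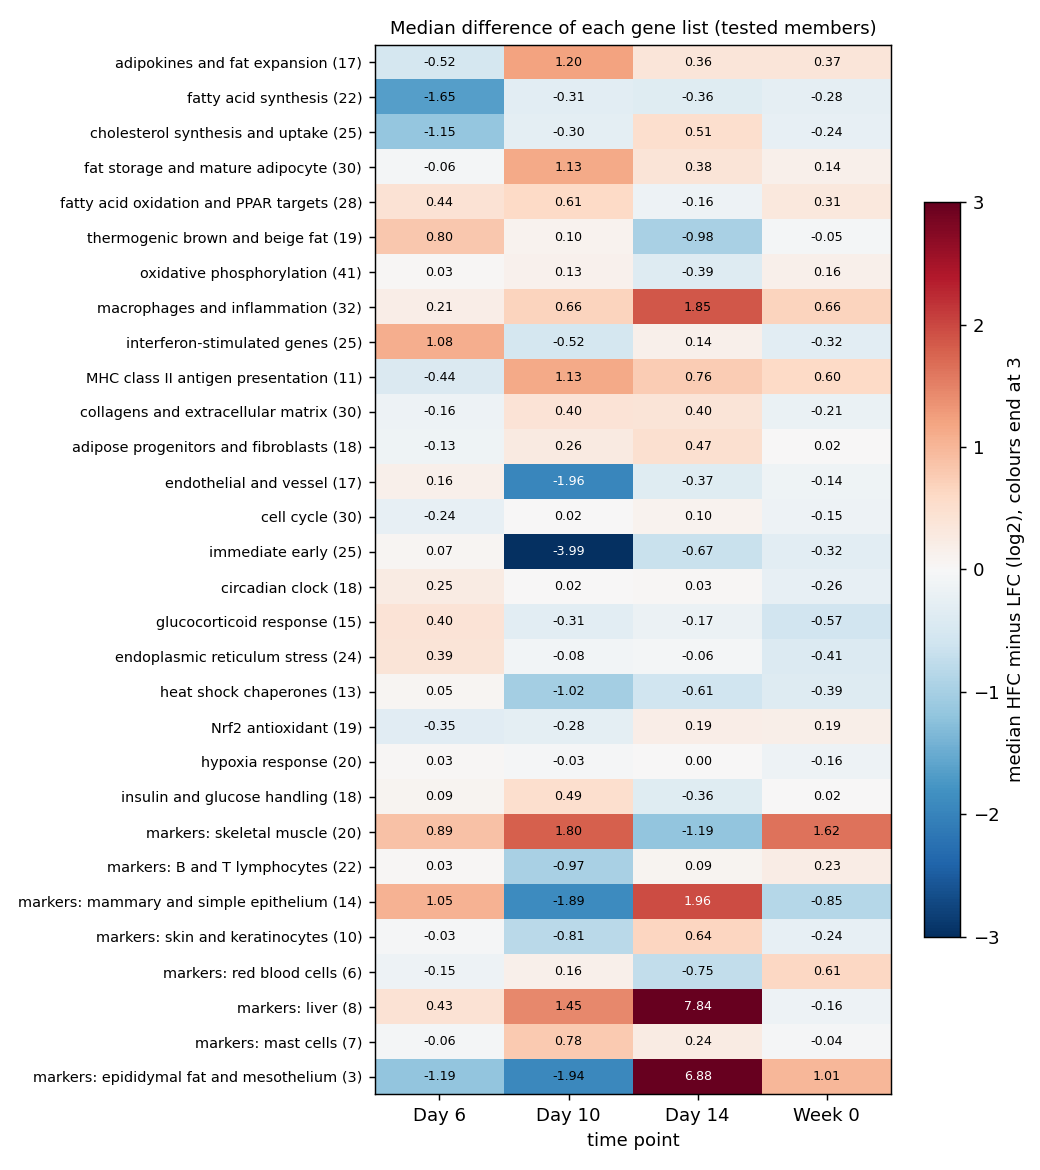
Median difference HFC minus LFC (log2, colour and printed value) over the tested members of each gene list except the Y-linked one (rows, number of genes in brackets) at each time point (columns). Fatty acid synthesis is the lowest of the functional lists at Day 6 and macrophage genes the highest at Day 14, and immediate early genes at Day 10 and liver markers at Day 14 stand out.

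The 32 tested macrophage and inflammation genes had a median difference of 0.73 (0.23 to 1.23 with 1 time point left out). Of them 5 (15.6%) were higher and 0 lower at 4 of 4 time points, against 5.86% of all genes higher, and 5 had an unadjusted p under 0.05, all higher (2.47% of all genes). By time point the median went from 0.21 at Day 6 to 0.66 at Day 10 and 1.85 at Day 14, and it was 0.66 at Week 0. At Day 10 the mean level of the list was 0.26 in LFC and -0.01 in HFC, so that the mean and the median difference had opposite signs there. Without Day 14 the median difference was 0.23 with 5 of 32 members higher at the remaining 3 time points, against 10.8% of all genes, and without Day 6 there were 17 (15.2% of all genes). Mpeg1, the perforin-like protein of macrophages, was at 1.55, 1.52, 1.74 and 1.28 in LFC and 2.50, 4.18, 3.84 and 2.63 in HFC. Its groups did not overlap, the second Mpeg1 probe was higher at 4 of 4 time points as well, and the mean difference was 1.76 (SE 0.35) or 3.4-fold. Itgam (CD11b) and Fcgr1, an Fc receptor, also had no overlap of the groups, with differences of 1.45 (SE 0.39) and 1.15 (SE 0.32). The macrophage surface receptor Emr1 (now Adgre1) had values of -0.22, 2.21, 2.07 and 1.27, Cd68 of -0.33, 1.07, 2.46 and 0.88 and Itgax (CD11c) of -1.23, 2.16, 3.25 and 1.05, all with a negative value at Day 6 only. On the other side Il6, an inflammatory cytokine, was lower in HFC at Day 10, Day 14 and Week 0, but it cleared the background on just 2 of the 4 HFC and 3 of the 4 LFC arrays and its differences are left without a size. The chemokines Cxcl10 and Ccl2 had mean differences of -0.72 and -0.52. Without Day 10, the pair split in immediate early genes, the means of Cxcl10 and Ccl2 were 0.56 and 0.49. In the MHC class II list H2-Ob, H2-Oa and Cd74 had negative means of -1.32, -0.68 and -0.12, and the list median of 0.54 was 0.88 without Day 6, 0.38 without Day 10 and 0.34 without Day 14. The first 4 genes of the list gave the same order of signs, negative at Day 6 and positive at the other 3 time points. Ctss, the cathepsin that trims the invariant chain, was higher in HFC with no overlap of the groups (1.51 (SE 0.49)), Ciita, the class II transactivator, differed by 0.72 (SE 0.28), and H2-Aa, H2-Ab1, H2-Eb1 and H2-DMa had mean differences of 0.78, 0.48, 0.83 and 0.44. Of the 11 class II genes, 2 were higher at 4 of 4 time points (5.86% of all genes) and 7 at 3 of 3 without Day 6 (15.2% of all genes).

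The Saa3 promoter is shown because Saa3 had the largest difference of the macrophage and inflammation list. Its window at chr7:46715627-46715926 (GRCm38.p6, minus strand) holds 1 match to the C/EBP element TTGCNNAA, in capitals and on the opposite strand, beginning at position -99 from the gene start. The same letters were found in 12.2% of all genes.
Saa3: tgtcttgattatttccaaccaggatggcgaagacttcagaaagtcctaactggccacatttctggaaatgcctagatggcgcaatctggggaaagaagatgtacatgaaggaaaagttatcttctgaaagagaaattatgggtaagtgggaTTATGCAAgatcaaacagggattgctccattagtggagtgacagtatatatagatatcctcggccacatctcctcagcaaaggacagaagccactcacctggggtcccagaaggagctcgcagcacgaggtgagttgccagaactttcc

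Several other genes were higher by 2-fold or more at each time point. Of the 17 that were also well above background on all 4 arrays of a diet, the rule for named genes took the 12 whose smallest difference over the time points was largest. Atp6v1c2, a subunit of the vacuolar proton pump, was at -3.78, -6.20, -6.54 and -8.07 in LFC and -1.78, -4.54, -4.72 and -6.55 in HFC. It had the second smallest p of all genes (1.75 (SE 0.22), limma unadjusted p = 0.000292, adjusted p = 0.833), but it was well above background on 1 of 4 LFC arrays, and its difference was 0.01 after normexp correction. Klra2, a receptor of the Ly49 family, and Tlr12, an endosomal Toll-like receptor, differed by 2.13 (SE 0.35) and 1.60 (SE 0.34). Klra2 was well above background on 1 of 4 LFC arrays, Trim67 on 2 and Slc4a4 on 3, so that the sizes of their differences rest partly on signals near background. Slc4a4, a bicarbonate transporter, differed by 2.08 (SE 0.29) on its brightest probe, while a second probe was lower in HFC at Day 6 and Day 10 and another at Week 0. Trim67 differed by 2.62 (SE 0.47), and each of its 6 dimmer probes had at least 1 time point with the opposite sign. Guca2b (uroguanylin) differed by 1.24 (SE 0.21), with well above background signal on 1 of 4 LFC arrays, and by -0.14 after normexp correction, the same as the median of all genes. The non-coding transcript 1700023L04Rik, named Smkr-ps in RefSeq, differed by 1.64 (SE 0.25). In the other direction Adcy10, the soluble adenylyl cyclase, was at 0.67, -0.81, -3.07 and -3.81 in LFC and -1.86, -3.18, -4.09 and -5.80 in HFC, a difference of -1.98 (SE 0.32). The transcripts BC015286 and XM_986326, for which the array's names are kept, differed by -1.41 (SE 0.27) and -1.38 (SE 0.25). After normexp correction the difference of Klra2 was 0.17, of Tlr12 0.42, of Slc4a4 0.17, of Trim67 0.47, of 1700023L04Rik 0.09 and of BC015286 -0.58. Limma's adjusted p was 0.833 for each of the genes in this paragraph.

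The median of skeletal muscle markers was above 0 at 3 of the 4 time points and below 0 at Day 14. Ryr1, the calcium release channel of skeletal muscle, was at 1.21, -2.61, -4.76 and -6.14 in LFC and 2.73, -0.43, -2.75 and -4.72 in HFC. Actn2, an actinin of the Z disc, differed by 2.09, 1.40, 1.79 and 1.46 at the 4 time points. Both genes went down with time in both diets, so that LFC and HFC values overlapped across time points. Their mean differences were 1.78 (SE 0.25) and 1.69 (SE 0.24), and those at single time points were 2-fold or more at 4 of 4. After normexp correction the means were 0.64 and 0.40. Over the 20 skeletal muscle markers the median difference was 0.89, 1.80, -1.19 and 1.62 at the 4 time points, its overall value was 0.74 (0.40 to 1.33 with 1 time point left out), and the mean level ran from -2.93 to 3.67 in LFC and from -2.73 to 4.22 in HFC. Of the 20, 3 (15%) were higher at 4 of 4 time points against 5.86% of all genes, and 11 were at 3 of 3 without Day 14 (10.8% of all genes). Acta1, Ckm, Actn3 and the calcium pump Atp2a1 had mean differences of 0.07, 0.73, 1.23 and 1.19. Among markers of other cells, Ms4a1, Cd79a and Cd79b differed by -0.54, -0.53 and -0.45 for B cells, while Cd3g, Cd8b1 and the low affinity IgE receptor Fcer2a differed by 0.88, 0.74 and -1.79. The median of the 22 lymphocyte genes was -0.12, and 0.22 without Day 10. Krt7, Krt8, Krt18 and Krt19 of simple epithelium had differences of 0.92, -0.10, -0.07 and 0.50, with opposite signs at Day 10 and Day 14 for each of them. Krt5, Krt14 and Krt10 of keratinocytes had differences of 0.10, 0.31 and 0.40, while Krt17 and Dsc3 were lower at 4 of 4 time points (-0.45 and -0.38). The 10 tested keratinocyte markers held these 2 lower genes (7.97% of all genes) and none higher at 4 of 4, and the median of the 10 was 0.10 (-0.40 to 0.56 with 1 time point left out). Mcpt4, Cpa3, Tpsb2 and Tpsab1 of mast cells had -0.23, 0.41, 0.35 and 0.26. Hba-a1, Alas2 and Eraf (now Ahsp) of red cells differed by -0.49, 0.18 and 1.68, and Hbb-b1 was saturated on all 8 arrays. Alb, Apoa2 and Cyp2e1 of the liver list had mean differences of 2.84, 2.79 and 1.95, and Msln and Krt19 of the mesothelial list 1.83 and 0.50. The list medians of liver and mesothelial markers were 1.99 and 1.83, and 0.68 and -0.64 without Day 14. The Y-linked genes Ddx3y, Eif2s3y, Kdm5d and Uty differed by -0.37, 0.12, 0.40 and -0.61.

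Several stress and signalling lists were split mainly at Day 10. Fos, the immediate early transcription factor, was lower in HFC at Day 10, with differences of 0.79, -7.41, -0.26 and -0.55 at the 4 time points, and Fos, Fosb, Fosl1 and Jun had mean differences of -1.86, -2.12, -0.67 and -1.03. Of the 25 immediate early genes, 8 (32%) were lower at 4 of 4 time points, against 7.97% of all genes, and 8 at 3 of 3 without Day 10 (11.7% of all genes). The list median moved from -1.12 to -0.24 without Day 10 and to -1.48 without Day 6. Klf2, a factor induced by blood flow, was the 1 member of 25 with an unadjusted p under 0.05 (-0.77 (SE 0.28)), and 1.7% of all genes were lower at that threshold. Heat shock chaperones had a median of -0.57 (-0.79 to -0.34 with 1 time point left out), Hsph1 differed by -1.46 (SE 0.43), and Hspa1a, Hspa8, Hspb1 and Hspb8 had -2.32, -0.53, -1.47 and 0.05. Vessel genes had a median of -0.70 that was -0.15 without Day 10 and -0.83 without Day 6. Pecam1, Cdh5, Kdr and Flt1 had mean differences of -0.31, -0.70, -0.80 and -0.91, each negative at Day 10 and between -0.26 and 0.15 at Week 0, and the growth factor Angpt1 had 0.98 (SE 0.27) over the 3 time points where both spots could be used.

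Among clock genes, Dbp, an output factor of the circadian clock, was at 3.38, 3.60, 5.65 and 4.59 in LFC and 1.99, 3.07, 3.95 and 4.10 in HFC, lower at 4 of 4 time points (-1.03 (SE 0.31)). Arntl (BMAL1), which is known to oscillate in the opposite phase to Dbp, was higher at 4 of 4 (0.68 (SE 0.26)). Of the 18 tested clock genes, 2 were higher (5.86% of all genes) and 2 lower (7.97% of all genes) at 4 of 4. Nr1d2, Per1, Per2, Per3, Tef and Hlf had mean differences of -0.48, -0.14, 0.21, 1.06, 0.05 and 0.12. Arntl, Clock, Npas2 and Nr1d1 had mean differences of 0.68, 0.17, 0.38 and -1.22, and the list median was 0.08 (-0.15 to 0.20 with 1 time point left out, below 0 without Day 6). The time of day of collection is not given in the sources used here. In the interferon list, Stat2, Irf7 and Irf9 differed by -0.19, 0.24 and -0.06, with a list median of 0.03 that was 1.08 at Day 6 and -0.52 at Day 10. Without Day 10 it was 0.32 and without Day 6 -0.26. Matrix genes had a median of 0.11 (-0.03 to 0.18 with 1 time point left out). Col1a1, Col1a2, Col3a1 and Col4a1 had 0.62, -0.25, -0.30 and 0.02, the collagens Col1a2 and Col3a1 being saturated on most arrays, and Timp1, a metalloprotease inhibitor, was lower at 4 of 4 time points (-0.87 (SE 0.26)). Pdgfra, Pdgfrb, Dpp4 and Pi16 of the progenitor list differed by 0.44, 0.02, 1.03 and 0.21 (list median 0.15, -0.02 to 0.18 with 1 time point left out). Mki67, Top2a, Ccna2 and Ccnb1 of the cell cycle list differed by -0.23, -0.33, -0.10 and 0.01 (median -0.15, -0.22 to -0.10 with 1 time point left out). Fkbp5, Tsc22d3, Sgk1 and Zbtb16 among glucocorticoid targets differed by -0.01, 0.25, -0.13 and 0.04 (median -0.14, -0.28 to -0.09 with 1 time point left out), and Hspa5, Hsp90b1, Pdia3 and Pdia4 among genes of endoplasmic reticulum stress by -0.36, -0.08, -0.35 and 0.48 (median 0.02, -0.13 to 0.17 with 1 time point left out). In the hypoxia list (median -0.07, -0.20 to 0.01 with 1 time point left out) Hif1a, Vegfa, Slc2a1 and Hk2 had -0.50, 0.94, -0.49 and 0.47, and Bnip3, a mitochondrial protein, was higher at 4 of 4 time points (1.19 (SE 0.40)). Insr, Irs1, Irs2 and Pik3r1 of insulin signalling had 0.46, 0.53, -0.23 and 0.28, and of that list's 18 members Slc2a5 was the one with an unadjusted p under 0.05 (list median 0.36, 0.10 to 0.30 with 1 time point left out). Over all genes 1.7% were lower and 2.47% higher at that threshold. At 4 of 4 time points 2 members of the list were higher (5.86% of all genes) and 1 was lower (7.97% of all genes).

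The 4 time points differed widely from each other. A difference of 2-fold or more between the diets was found for 3440 genes (16.3%) at Day 6, 7326 (34.8%) at Day 10, 4967 (23.6%) at Day 14 and 1290 (6.11%) at Week 0, each a comparison of single arrays with no replicate check. At Day 10 more of them were lower in HFC (4830) than higher (2496), and at Day 14 more were higher (3239) than lower (1728). Across genes, which are not independent replicates, the differences at Day 6 correlated with those of the other time points at r of -0.13, -0.06 and -0.09, and the other 3 time points with each other at 0.22 (Day 10 and Day 14), 0.21 (Day 10 and Week 0) and 0.13 (Day 14 and Week 0). Day 14 and Week 0 represent the same length of feeding. Of the genes with a 2-fold difference at Day 14, 9.77% also had one in the same direction at Week 0, and of those at Week 0, 37.7% had one at Day 14. Elovl6, at -1.82 and -1.63, Slc2a5, at -1.81 and -2.46, and Saa3, at 5.87 and 2.84, were among the 485 genes that did. Their place there follows from the rule that named them, a 2-fold difference on the same side at each of the 4 time points.

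Diet differences at the later time points, Week 3 to Week 18 with 6 pairs of arrays, were set against the early ones in a single fit. Some late arrays were dim. The LFC arrays of Week 9 and Week 18 had a 75th percentile of 204 and 108, against 650 and 321 on their HFC partners. On these LFC arrays 52.1% and 54.2% of spots were well above background, and on their HFC partners 60.2% and 66.1%. The part of this in the late differences was not tested. For the late minus the early difference, limma's adjusted p was under 0.05 for 0 of 22435 genes (0%), and 562 (2.51%) had an unadjusted p under 0.05, a count of 345 without Day 14. The late differences of Elovl6 were 2.43, -0.86, -3.20, -6.31, -1.27 and -3.35 at Week 3, 6, 9, 12, 15 and 18, and those of Slc2a5 3.96, -2.14, -5.32, -10.97, -4.92 and -6.13. Both genes were lower in HFC at 5 of 6 late time points and higher at Week 3, and the late minus early difference was -0.25 (SE 1.32) for Elovl6 and -1.52 (SE 2.20) for Slc2a5. Slc2a5 was well above background on 3 of 6 late HFC arrays. The list of fatty acid synthesis had a late median of -0.29 against -0.39 early. Saa3 was higher at 5 of 6 late time points, by 1.47 on average, and its late minus early difference was -2.37 (SE 0.85, limma adjusted p = 1). Tlr12 was lower in HFC at 5 of 6 late time points after being higher at 4 of 4 early ones, a difference of -3.26 (SE 0.56, limma adjusted p = 0.63). Dbp was higher at 5 of 6 late time points after being lower at 4 of 4 early ones (limma adjusted p = 1). Vnn1 was higher at 5 of 6, Ehhadh at 4 of 6 and Slc4a4 at 6 of 6 late time points. Elovl3 had a negative value at 6 of 6 and cleared the background on 0 of 6 late HFC arrays and 3 of 6 late LFC arrays. On the HFC array of Day 1, which has no LFC partner, Elovl6 was at -0.26, Slc2a5 at -2.84 and Saa3 at -3.55, and the muscle gene Ryr1 at 6.23.

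**Figure D5:**
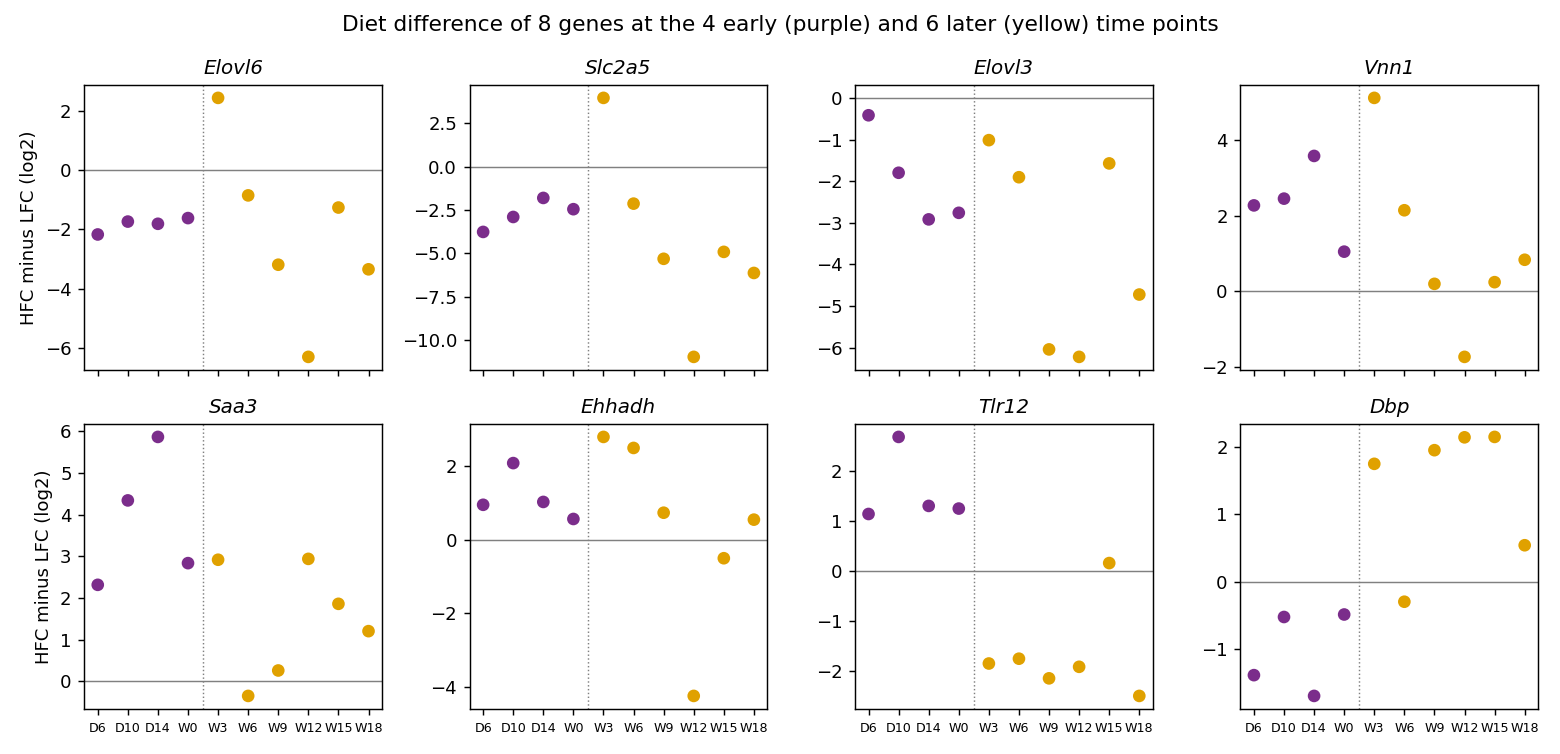
Difference HFC minus LFC (y axis, log2, a scale for each panel) of 8 genes at the 4 early time points (purple) and the 6 later ones (yellow, Week 3 to Week 18), 1 pair of arrays per point. Elovl6 and Slc2a5 lie below 0 at 9 of 10 time points with Week 3 above it, and Tlr12 and Dbp lie on opposite sides of 0 early and late at all but 1 time point each.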

How the data were processed

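RNA of mouse subcutaneous adipose tissue was labelled with 1 dye and hybridised to Agilent 60-base arrays. Feature Extraction made the deposited intensity files, in version 10.5.1.1 per the file headers and 9.1 in the submitters' processing notes. The authors also deposited a table of log2 ratios to the LFC array, made in GeneSpring GX, which gave probe names, sequences and chromosomes and was fitted as an alternative, and 31 of its columns were not used. Its LFC columns are all 0, so it holds no LFC spread.

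From the deposited processed intensity, the log2 value minus the log2 of the array's 75th percentile was taken over non-control spots, without outlier-flagged spots, which left 172 of the tested genes with fewer than 8 values. Each gene name was represented by its brightest probe over the 8 arrays, and 21123 of 29411 names were tested, those well above background on at least 4 of 8 arrays. Of these names 18039 matched a RefSeq symbol or synonym. limma 3.58.1 in R 4.3.3 fitted diet with the time point as a block, leaving 3 residual degrees of freedom before moderation, with two-sided p-values and Benjamini-Hochberg adjustment at 0.05. The block follows from shared collection days in the labels. The correlation of the paired arrays' deviations from their diet means was 0.65 at Day 6, -0.05 at Day 10, 0.42 at Day 14 and 0.77 at Week 0. An exact test over 4 pairs cannot go below 0.125. The 8 arrays lay on 8 slides and 5 scan days, and 3 of the 4 pairs shared a scan day. The number of arrays limits the precision.

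Genes named were those 2-fold different at 4 of 4 time points and well above background on all 4 arrays of a diet (up to 12 per direction, by smallest difference), the 3 smallest p, and, for each gene list, members with an unadjusted p under 0.05 (up to 4) and the first 4 measured. Some genes that the rule takes are not reported here. Genes named outside that rule were chosen after their values were seen. The comparison, its members and the lists were chosen with earlier results of these data known. Alternatives were other scalings, normexp correction with an offset of 50, other filters and weights, other fits, and leaving out each time point.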

Additional observations from a re-analysis of the deposited data

Results flagged for a closer look

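In 4 of 96 groups of 4 arrays 1 array stood far from the others by Dixon's test of the gap over the range, and chance flags about 1 in 20 such groups. The mean level of cholesterol synthesis and uptake genes was -0.68 on the HFC array of Week 0 and 0.59 to 0.63 on the other HFC arrays. The mean level of endothelial and vessel genes was 1.74 on the LFC array of Day 6 and 3.16 to 3.44 on the other LFC arrays. The mean level of immediate early genes was -0.47 on the LFC array of Day 6 and 3.69 to 4.13 on the other LFC arrays. The mean level of mesothelial markers was 1.58 on the HFC array of Day 14 and -4.08 to -3.67 on the other HFC arrays. The parts these arrays play in the diet differences were not tested, and the list medians without the time point in question are given with the lists.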

How the results depend on the processing

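The count of genes with an unadjusted p under 0.05, 881 in the fit reported, was 447 after normexp correction, 2465 with array weights, 360 with the spread shared over 20 arrays, 268 by the methods' t-test and 581 to 1729 when 1 time point was left out. Without the replicate block it was 256. Genes higher by 2-fold at each time point (23) numbered 0 after normexp correction, 15 after quantile normalization, 9 among genes well above background on all 8 arrays, 85 with Day 14 and Week 0 averaged and 47 to 165 with a time point left out. Genes lower by 2-fold (6) numbered 2 after normexp correction, 14 with Day 14 and Week 0 averaged and 9 to 130 with a time point left out. The late minus early count (562) was 279 after normexp correction, 207 without the replicate block and 345 to 645 with a time point left out, and 0 genes passed adjustment in each of these. Of the alternatives for the 17 genes taken by the 2-fold rule, 298 kept their direction, among them values that came near 0 after normexp correction (Atp6v1c2 0.01, 1700023L04Rik 0.09), and Guca2b reversed to -0.14 there. The 17 genes were taken for a 2-fold difference on the same side at each time point. Leaving out a time point or refitting the same levels could therefore not reverse them, and keeping a side there says nothing about stability. No gene passed the adjusted threshold in any of the alternatives. The cause of the shifts after normexp correction was not tested. Adjusted p for the 17 genes ran from 0.152 upward over all alternatives. The median of the fatty acid synthesis list ran from -0.56 to -0.27, that of the macrophage list from 0.23 to 1.23 and that of the cholesterol list from -0.60 to 0.07. Saturated probes and probes near background limit the size of differences of bright and dim genes.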
